A study of Mus musculus with 3 samples.

Results

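To find the places that both deposited ChIP-seq lists, labelled H3K4me3, hold in common, every peak of one list was compared with every peak of the other. A peak was counted as shared when it had at least 1 bp in common with a peak of the other list. Members were thus chosen by the measured peak positions, and their number is fixed by that rule and is not a finding. It gave 237 shared peaks among the 521 of the WT-labelled list and 237 among the 819 of the SUN1/2DKO-labelled list, which is 45.5% of the first list and 28.9% of the second, or 474 of 1340 peaks in all. These peaks formed 250 overlapping pairs, because some peaks touched more than 1 peak of the other list.

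The study asked whether loss of the nuclear envelope proteins SUN1 and SUN2 changes H3K4me3 in mouse PEMs, which are peritoneal macrophages collected after thioglycollate injection and then cultured. Per the labels, 1 ChIP library came from WT cells and 1 from SUN1/2DKO cells, and a further WT library was made with IgG. The study's methods describe 6-week-old mice on a C57BL/6 background, in which Sun1 fl/fl is removed by LysM cre/cre, a Cre that acts in myeloid cells, and Sun2-/- holds in all cells. The WT littermates were Sun1 fl/fl Sun2+/+, so the floxed Sun1 alleles were common to both groups. With a single library per label, no replicate error is known for any value given here.

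The lists themselves differ from these labels. Their headers name FAM181A for the WT-labelled library (X6) and TEAD4 for the SUN1/2DKO-labelled library (X5), each with an input of the same name as control, and neither names H3K4me3. The control of the WT-labelled list is X3, which the labels give as IgG and the header as input, and that of the other list is X2, which is not among the samples used here. Every fold enrichment and score below was computed against these controls. The peaks lie on chromosomes 1 to 22, X and Y, whereas the mouse has no chromosomes 20 to 22. Of the shared peaks, 33 in each list were on chromosomes 20 to 22. Over all peaks the share on these chromosomes was 10.9% in the WT-labelled list and 15.0% in the DKO-labelled list, against 13.9% of the shared peaks of either. Counting also those that ended past the last annotated gene of a mouse chromosome (RefSeq, GRCm38.p6), 51 shared peaks of the WT-labelled list and 54 of the DKO-labelled list lay outside the annotated part of the mouse chromosomes, where 19.6% and 21.1% of all peaks did. Positions on chromosome 10 ran up to 135495766 and on chromosome Y up to 59033338. From textbook chromosome lengths, not from a file used here, both lie beyond the chromosome ends of the human build hg38, which the submitters' processing notes name beside mm10, and within those of the older human build hg19. The positions thus do not match the builds that the notes name, and they are given as listed. Whether the lists were made from the labelled libraries could not be established from the files, and the numbers of shared peaks hold for the lists as deposited. No mouse gene is assigned to any peak, and "WT-labelled" and "DKO-labelled" below stand for the 2 libraries and not for a genotype.

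H3K4me3 is a histone mark of active promoters, so its peaks usually sit at many separate gene starts along all chromosomes. MACS, the program that made the lists, finds stretches where ChIP tags (aligned reads) outnumber what a control library predicts. The parts of human chromosomes beside the centromeres, the short arms of the acrocentric chromosomes and some chromosome ends consist largely of satellite and duplicated sequence, which reference assemblies hold only in part. No repeat annotation of the build was used here, and the part that repeats play in the shared peaks was not tested.

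Shared peaks were spread unevenly over the chromosomes. Chromosome 4 held the most, with 44 of its 56 WT-labelled peaks and 42 of its 89 DKO-labelled peaks. Chromosomes Y and 2 came next, with 24 of 28 and 24 of 60 on Y, and 22 of 34 and 25 of 46 on 2. Together with chromosomes 10, 21 and 16, these 6 chromosomes, which are the ones with the most shared WT-labelled peaks, held 57.8% of the shared peaks of the WT-labelled list and 58.2% of those of the DKO-labelled list. They held 38.6% and 43.6% of all peaks of the lists, a difference that is partly built in by choosing these chromosomes for their shared peaks. Chromosome 1 showed the opposite pattern, with 5 of 32 WT-labelled and 5 of 77 DKO-labelled peaks shared. On chromosome 15 the shared peak was 1 of 13 in each list. Chromosome 21 separated the lists, since its 16 shared peaks were 64.0% of its WT-labelled peaks and 18.0% of its 89 DKO-labelled ones.

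**Figure D1:**
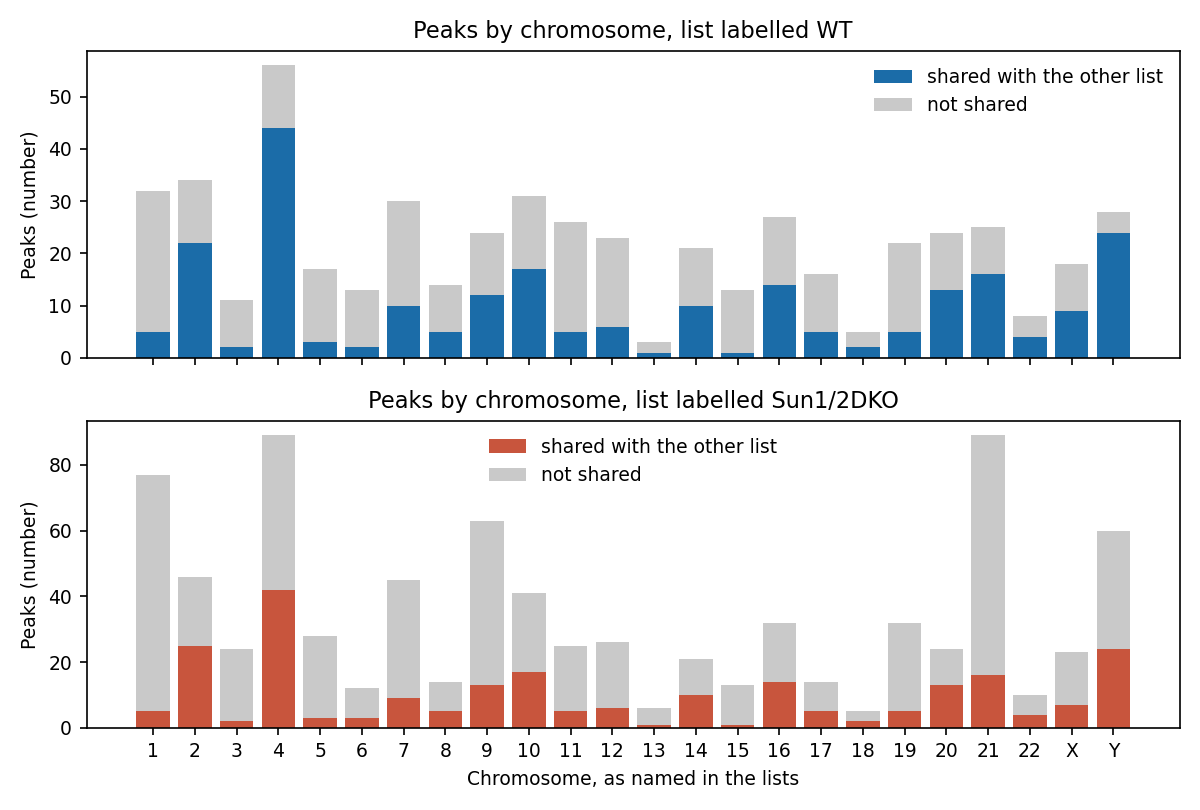
Number of peaks on each chromosome in the WT-labelled list (top) and the DKO-labelled list (bottom), with the shared peaks in colour and the others in grey. Chromosome 4 has 44 and 42 shared peaks, while chromosome 1 has 5 in each list among 32 and 77.

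Within chromosomes the shared peaks stood close together. A neighbour in the same list within 100 kb was found for 192 of the 237 shared WT-labelled peaks, which is 81.0% (95% Wilson interval 75.5% to 85.5%, counting error only), against 48.2% of all peaks of that list and 20.8% of its 284 unshared peaks. In the DKO-labelled list this held for 205 shared peaks, or 86.5% (81.6% to 90.3%), against 76.6% of all its peaks and 72.5% of its 582 unshared ones. Overlap with a list as crowded as the second picks crowded peaks of the first, so the contrast within the WT-labelled list is partly built in by the rule. Peaks are not independent draws, and these intervals do not cover their clustering.

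When the peaks of both lists were pooled and joined over gaps of up to 100 kb, 489 runs resulted, and 89 of them held a shared peak. Of these, 36 runs had 2 or more shared WT-labelled peaks and contained 184 of the 237. The 5 richest runs held 62 shared WT-labelled peaks (26.2%) and 59 shared DKO-labelled peaks (24.9%). The 10 richest held 102 (43.0%) and 99 (41.8%), within stretches that add up to 1366 kb. In these 10 runs nearly all WT-labelled peaks were shared (102 of 111), while 99 of 182 DKO-labelled peaks were. As the runs were ranked by their shared WT-labelled peaks, this contrast is partly built in. Over all 89 runs with a shared peak, 44 WT-labelled and 320 DKO-labelled peaks were not shared, beside the 237 of each list that were.

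The 2 richest runs lay on chromosome 4, where human assemblies place the short-arm side of the centromere. At chr4:49092998-49337815, 20 of 23 WT-labelled peaks and 18 of 36 DKO-labelled peaks were shared. These shared peaks held 2592 tags over 38603 bp in the first library and 4625 tags over 50841 bp in the second, or 67.1 and 91.0 tags per kb. At chr4:49511948-49660043, all 13 WT-labelled peaks were shared, with 11 of 17 DKO-labelled peaks. Fold enrichment, the height of a peak over its local background from the control, had a median of 16.17 in the first list and 17.80 in the second over the shared peaks there, above the medians of 7.95 and 9.005 in the neighbouring run. This second run thus had fewer shared peaks, with a higher median fold enrichment in both lists. Their density was near that of the first run, at 69.5 tags per kb in the WT-labelled list and 89.0 in the DKO-labelled list.

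Another long run of chromosome 4 stood at the far end of its long arm, chr4:190845629-191033115, with 9 of 11 WT-labelled and 11 of 23 DKO-labelled peaks shared. Its counterpart at the end of the long arm of chromosome 10, chr10:135445781-135495766, held 5 of 5 and 6 of 8. In humans the ends of both these long arms carry arrays of the D4Z4 repeat, which encodes the transcription factor DUX4. The shared peaks of the 2 runs had similar densities, with 54.0 and 66.1 tags per kb on chromosome 4 and 45.9 and 61.6 on chromosome 10, in the WT-labelled and the DKO-labelled list. Whether the peaks lie within these arrays was not examined.

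Chromosome Y had 4 runs with at least 4 shared WT-labelled peaks. The richest, chrY:9914352-10082187, held 10 of 11 WT-labelled and 10 of 21 DKO-labelled peaks as shared ones. At chrY:13252099-13490277 the 5 shared peaks of each list held 169 and 220 tags per kb, the highest of these 4 runs in both lists. The run at chrY:58971949-59033338, at the end of the listed chromosome, contained the longest shared peak of the DKO-labelled list (9883 bp) and had lower densities of 53.0 and 70.7 tags per kb.

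Among the other runs of the richest 10, a short one at chr2:89840082-89880310 was the most compact. It spanned 40.2 kb and all its 10 WT-labelled peaks were shared, as were 11 of its 14 DKO-labelled peaks. On the short arms of chromosomes 16 and 20, near their centromeres, chr16:33864962-34023100 and chr20:26188432-26318974 each held 9 shared peaks of either list. The run at chrX:61727673-61887246 held 8 of 9 and 6 of 17, and chr14:19000267-19056584 held 7 of 8 and 7 of 12. Only 7 peaks of each list were shared at chr2:132966561-133039574, but they had 159.9 tags per kb in the WT-labelled and 205.9 in the DKO-labelled library, the highest densities among these 10 runs.

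**Figure D2:**
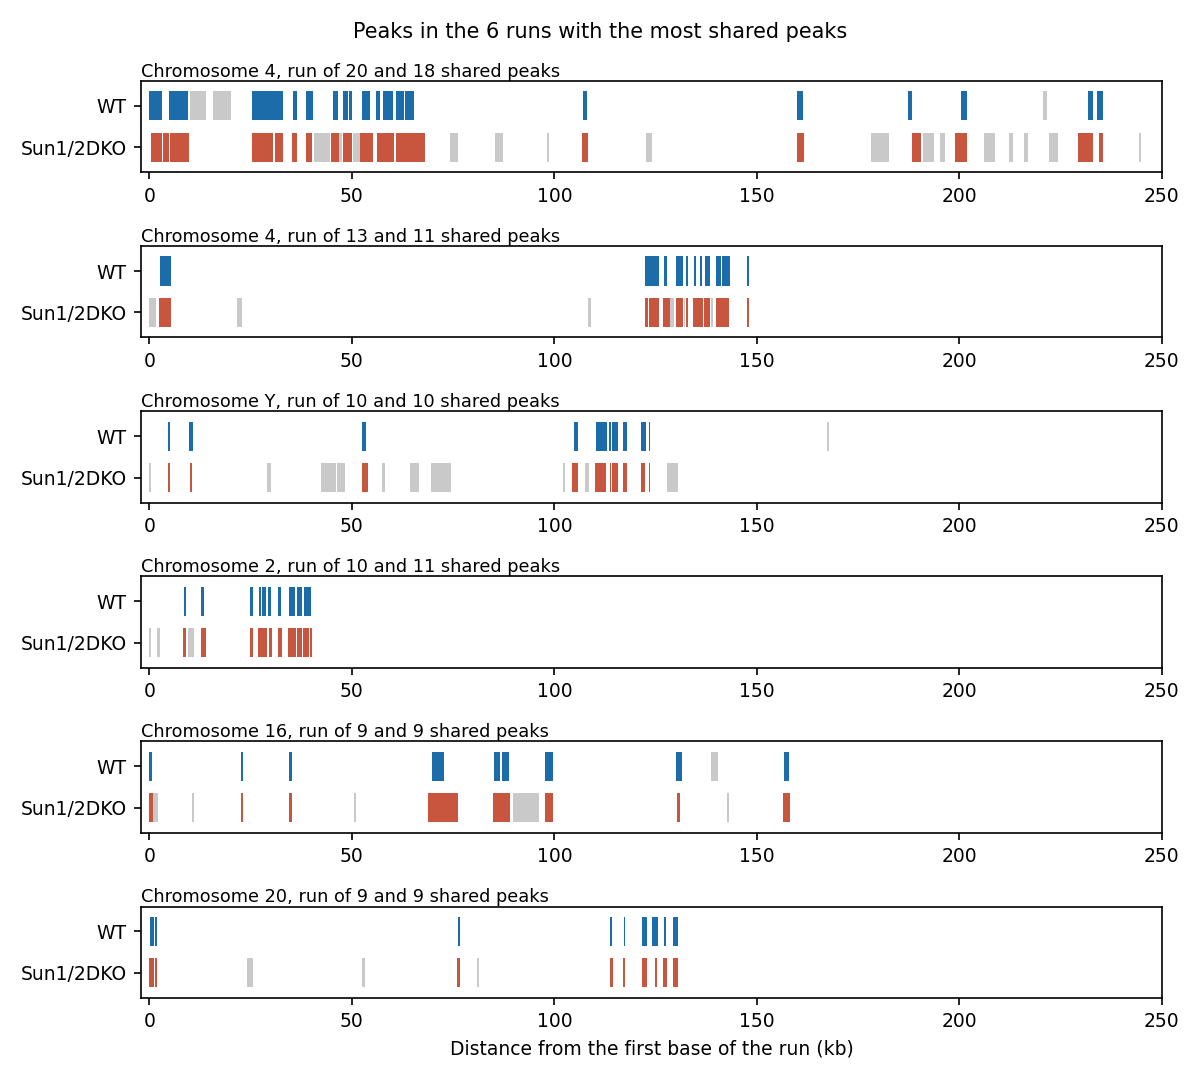
Peaks of both lists in the 6 runs with the most shared WT-labelled peaks, drawn to scale as bars along the distance from the first base of each run in kb, with shared peaks in colour and others in grey. The runs were picked for their shared WT-labelled peaks, so nearly all WT-labelled peaks are coloured, while the DKO-labelled rows also hold grey peaks between them, as in the first chromosome 4 run with 18 of 36 shared.

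At the other extreme, 30 shared pairs were alone, with no further peak of either list within 100 kb. They were scattered over 19 chromosomes, with at most 4 on any of them. Being alone refers only to the 100 kb gap, and the distance of these pairs from centromeres was not examined. In the WT-labelled list these peaks were shorter than the shared peaks of runs with 2 or more (median 669 against 1076 bp) but not weaker, with a median score of 103.9 against 96.9. MACS derives this score from the Poisson p of a peak, as -log10(p) multiplied by 10. In the DKO-labelled list the medians were 808.5 against 1218.5 bp, and 147.7 against 154.7. Ranked by the lower of its 2 scores, the first of the lone pairs, singled out after the values were seen, was at chr20:29829141-29830060, with a score of 602.00 and 157 tags in the WT-labelled list and 544.52 and 232 tags in the DKO-labelled list. The lone pair at chr18:18510902-18513982 held more tags, 669 and 823.

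Peak size and height were compared next. Since strong peaks are more easily found in both lists, these values describe the members and test nothing. Shared WT-labelled peaks ranged from 290 to 8008 bp, with a median of 967 bp and quartiles of 675 and 1512 bp. For the DKO-labelled list the range was 223 to 9883 bp, with a median of 1084 bp and quartiles of 781 and 1937 bp. Longer than 1 kb were 114 shared WT-labelled peaks (48.1%, against 29.0% of all) and 131 shared DKO-labelled peaks (55.3%, against 43.5% of all). Both lists had a tail of shared peaks of several kb.

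The tags were concentrated in the shared peaks. They held 26833 of the 35801 tags in all WT-labelled peaks (74.95%) on 58.0% of the bases in peaks, and 39041 of the 74737 tags in all DKO-labelled peaks (52.2%) on 35.0% of the bases. Relative to the 10706595 and 12255444 tags used in the libraries, these were 0.251% (95% Wilson interval 0.248% to 0.254%) and 0.319% (0.315% to 0.322%). Almost all tags of both libraries thus lay elsewhere. The intervals cover counting error only, in peaks that were called for their tags, and do not compare the libraries. A shared peak held between 11 and 2082 tags in the first list, with a median of 49, and between 12 and 2547 in the second, with a median of 72.

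Score and fold enrichment ordered the shared peaks differently in the 2 lists. A score of at least 100 was reached by 114 shared WT-labelled peaks (48.1%, against 37.6% of all) and 172 shared DKO-labelled peaks (72.6%, against 32.8% of all). A fold enrichment of at least 10 was reached by 109 shared WT-labelled peaks (46.0%), below the 59.7% of all peaks of that list, and by 115 shared DKO-labelled peaks (48.5%), above the 29.4% of all. Shared peaks were therefore on the high side of their list by score in both, but by fold enrichment in the DKO-labelled list alone.

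Part of this contrast lay in where the other peaks stood. Peaks that were not shared but lay in a run with a shared peak numbered 44 in the WT-labelled list and 320 in the DKO-labelled list. Their median density, 30.2 and 33.1 tags per kb, was below the 48.3 and 62.6 of the shared peaks and near the 28.7 and 26.9 of peaks in no such run. By fold enrichment, the 44 WT-labelled peaks had a median of 9.32, close to the 9.60 of the shared ones, while the 240 WT-labelled peaks elsewhere had a median of 13.59. In the DKO-labelled list the medians were 7.15 beside shared peaks, 9.88 in shared peaks and 7.94 elsewhere. In the WT-labelled list, the higher median of unshared peaks was thus that of peaks away from any shared one.

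**Figure D3:**
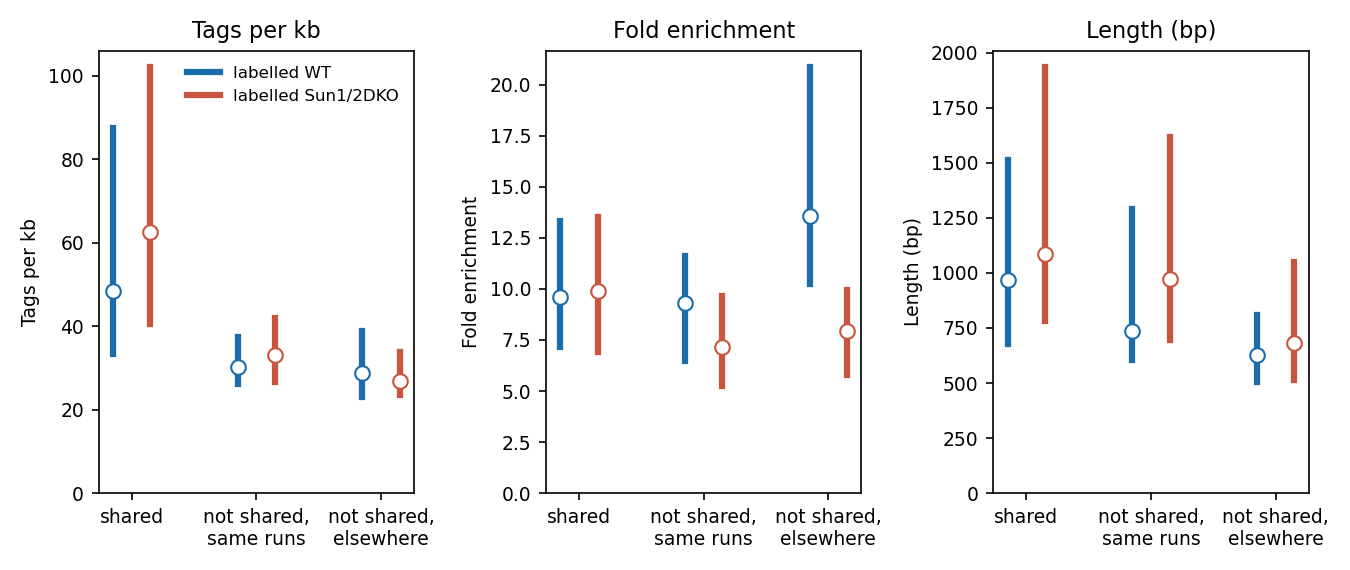
Tags per kb, fold enrichment and length of shared peaks, of unshared peaks in the same runs and of unshared peaks elsewhere, with the median as a circle and the bar from the first to the third quartile, for each list. Shared peaks have the highest median density in both lists (48.3 and 62.6 tags per kb), while the highest median fold enrichment is that of unshared WT-labelled peaks elsewhere (13.59).

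The most tag-rich shared peaks were not the most enriched. The WT-labelled peak with the most tags, chr10:42397779-42401322, held 2082 tags, or 587 per kb, at a fold enrichment of 3.21. Its DKO-labelled partner began at the same base, chr10:42397779-42401370, and held 2334 tags, or 650 per kb, at a fold enrichment of 3.19. A peak on chromosome Y, chrY:13478881-13486888, held 1933 tags in the WT-labelled list, and its partner chrY:13478865-13486903 held 2547, with fold enrichments of 6.33 and 6.95. When the shared peaks were split by tags per kb into 4 sets of 59 or 60, the densest set had the lowest median fold enrichment in each list, 8.30 in the WT-labelled and 8.52 in the DKO-labelled list, and the highest median score, 191.1 and 319.2. Tag number enters the score, so that order is partly built in.

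The pairs with the highest fold enrichment in both lists held between 31 and 137 tags in the WT-labelled list and between 43 and 536 in the DKO-labelled list, fewer than the tag-rich pairs above. First by the lower of its 2 values was a pair of the chromosome 4 centromere side, with 34 tags and a fold enrichment of 39.48 at chr4:49647877-49648499 in the WT-labelled list, and 126 tags and 52.27 at chr4:49646243-49648665 in the DKO-labelled list. Its DKO-labelled peak also overlapped another WT-labelled peak. Next came chr8:43094641-43095358, where the WT-labelled peak had 89 tags and 38.37 and the DKO-labelled peak 102 tags and 36.22. The third, chr20:26302057-26302617, had 31 tags and 28.46 against 43 tags and 43.56. The remaining 2 of the top 5 were again on chromosome 4, at chr4:49653847-49655278 (lower value 23.05) and chr4:49156097-49158379 (lower value 20.90).

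Ranked by score instead, the first pair was the long one at chr2:133028737-133035140, with 852.94 and 1143 tags in the WT-labelled list and 1348.51 and 1558 tags in the DKO-labelled list. It was followed by chr20:26189739-26190376 (654.74 and 1128.67), chr21:10819250-10820107 (624.85 and 708.57), the pair on chromosome 8 named above (637.30 and 597.26) and chr4:49097796-49102605 (595.14 and 1419.15). The chromosome 8 pair was the only one among the top 5 of both rankings. It was also the only one of these 5 with the higher score in the WT-labelled list.

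The position of the summit, the highest point of a peak, was not used directly to choose the members. A summit lies inside its peak, however, so the overlap that the rule requires limits how far apart the summits of a pair can be. In the 250 pairs, the summits of the 2 lists lay a median of 20 bp apart, with quartiles of 8 and 166 bp. They were within 10 bp of each other in 78 pairs, of which 4 had the same base, and within 50 bp in 163 pairs. In 46 pairs the summits were more than 500 bp apart. Where both peaks were at most 1 kb long, 74 of 92 pairs had summits within 50 bp, and where either was over 2 kb long, 32 of 73 did. The 2 libraries therefore peaked within 50 bp of each other in most short pairs and less often in long ones, where there is also more room for summits to lie apart.

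**Figure D4:**
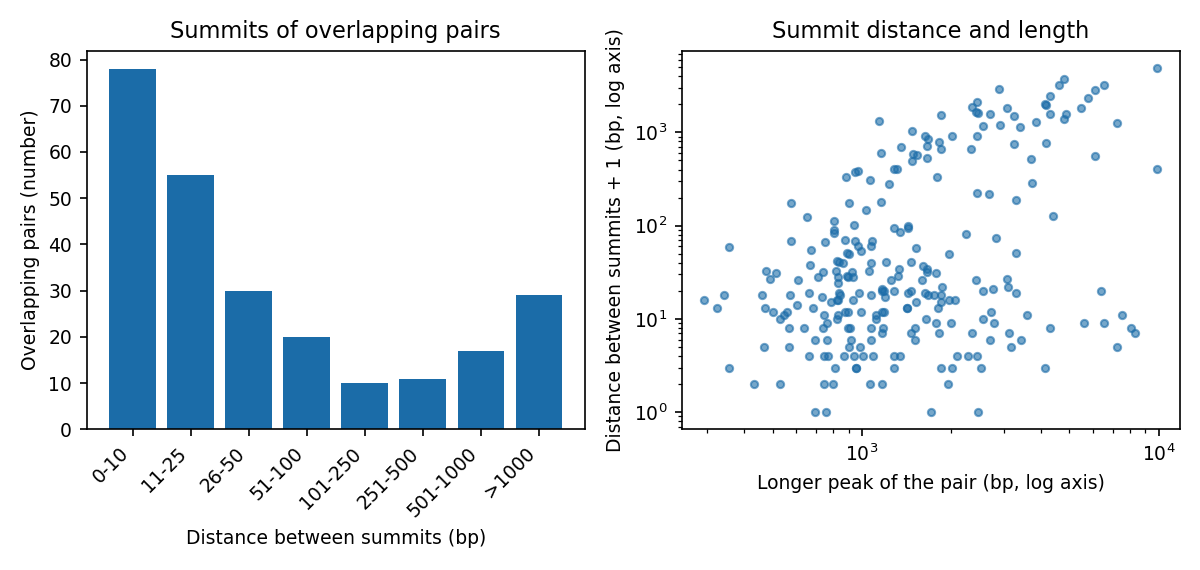
Left, number of overlapping pairs by the distance between the summits of the 2 peaks in bp. Right, that distance plus 1 bp against the length of the longer peak of each pair (log axes), where 163 of 250 pairs are within 50 bp.

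Peak borders matched less closely than summits. Starts were within 50 bp of each other in 75 pairs, ends in 83 and both in 34, and no pair had the same start and end. In 172 pairs the DKO-labelled peak was the longer one. The overlap covered a median of 98.6% of the WT-labelled peak and 82.1% of the DKO-labelled peak. The WT-labelled peak lay wholly inside its partner in 100 pairs, and the DKO-labelled peak in 32. In 203 pairs each peak had a single partner, while 13 WT-labelled and 12 DKO-labelled peaks had more than 1, with up to 3 WT-labelled peaks inside 1 DKO-labelled peak.

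Few members depended on the 1 bp limit where the shorter peak was the measure. When at least 50% of the shorter peak had to be covered, 235 of the 237 WT-labelled members were left. With at least 50% of both peaks covered 194 were left, and with the summit of each peak inside the other 214 were. The shortest overlaps were 9 bp between chr4:49280321-49281320 and chr4:49281312-49283655, 17 bp between chr4:191002091-191002981 and chr4:191002965-191004102, and 63 bp at chr4:49097796-49102605. The first of these peaks had 60 tags in the WT-labelled list and 177 in the DKO-labelled list. Just outside the limit, the WT-labelled peak nearest to the other list was chr10:42542393-42545370, with 621 tags and a gap of 44 bp, and the nearest DKO-labelled peak was chr4:49139708-49140593, with 30 tags and a gap of 41 bp.

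Between the libraries, the tags of paired peaks followed each other. Over the 203 pairs with a single partner, Spearman's rho was 0.92 for tags and 0.90 for tags per kb, but 0.68 for fold enrichment and 0.59 for the score. These describe places along the same 2 libraries, many of them neighbours of each other, and peak length enters both sides of the tag counts. After division by the tags used in each library, the DKO-labelled peak held more tags in 200 of 250 pairs, with a median log2 ratio of 0.30 and quartiles of 0.08 and 0.55. The 2 values were within 1.5-fold of each other in 179 pairs.

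Peak length moved with this difference. After division by length as well, the median log2 ratio was 0.12, the DKO-labelled peak was higher in 162 pairs and 214 pairs were within 1.5-fold. At least 2-fold more tags, scaled to library size, were found in 34 pairs in the DKO-labelled list and in 8 pairs in the WT-labelled list, but only 14 and 2 of these were pairs with a single partner. Per kb, 8 pairs differed by at least 2-fold in either direction. The number of tags used also differed, and the control of the WT-labelled library had 10034265 tags against 14285407 in the other. The part of these depths in the peak lengths was not tested.

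**Figure D5:**
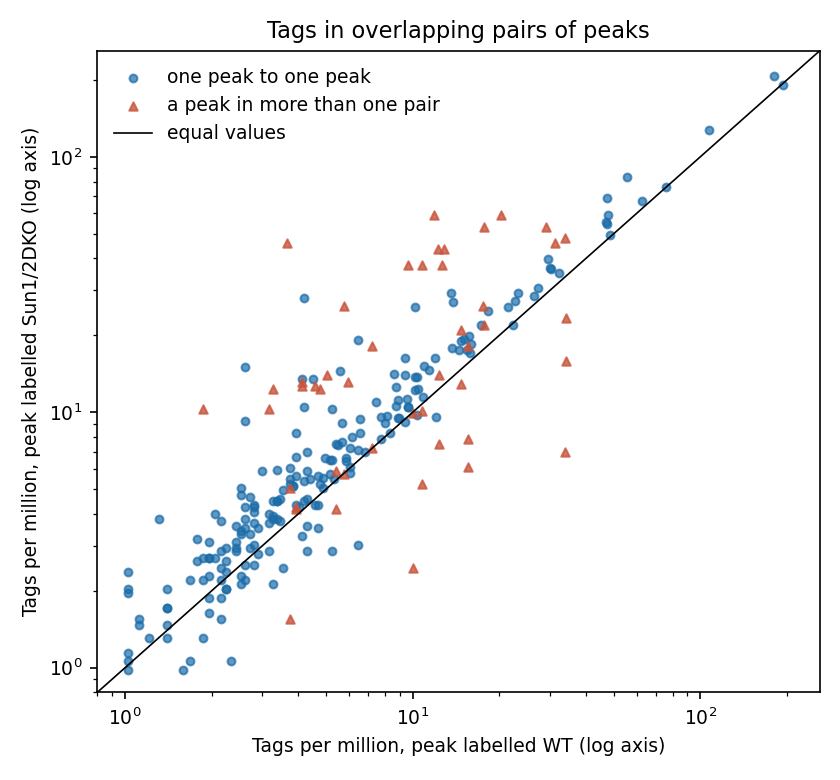
Tags scaled to the tags used per library in the WT-labelled and the DKO-labelled peak of each of the 250 overlapping pairs (log axes), with the line of equal values. Most points lie just above the line (200 of 250 pairs), and the points farthest from it are mostly triangles, pairs in which a peak has more than 1 partner.

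The largest differences sat in pairs of very unequal length. The highest ratio, 3.65 on the log2 scale, was between chr4:49149007-49149850 with 39 tags and chr4:49149265-49153402 with 561 tags, where the DKO-labelled peak was several times longer. Next were chr17:25267211-25268408 with 45 against 342 tags (2.73) and chr21:9871939-9872789 with 28 against 184 tags (2.52). At the low end, chr4:49097796-49102605 with 362 tags met the much shorter chr4:49096342-49097858 with 86 tags (-2.27), and chr10:135479560-135482267 with 107 tags met chr10:135479656-135480468 with 30 tags (-2.03). The last of these was chr6:61912843-61914662, with 166 against 75 tags (-1.34). Per kb of peak, these 6 ratios shrank to between -0.60 and 1.36.

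Across runs, the direction depended on whether length was divided out. The median log2 ratio of scaled tags over the pairs of a run was above 0 in 10 of the 10 richest runs and in 34 of the 38 runs with 2 or more pairs. Per kb of peak it was above 0 in 7 of the 10 richest and in 23 of the 38. The runs below 0 per kb among the richest were chr20:26188432-26318974, chrX:61727673-61887246 and chr14:19000267-19056584, all between -0.05 and -0.02. Without division by length, the medians of the 10 richest went from 0.01 at chr14:19000267-19056584 to 0.63 at chr4:49092998-49337815. In the latter run 20 of 21 pairs were higher in the DKO-labelled list, and per kb the median there was 0.14. The 30 lone pairs had a median of 0.21, with 26 of 30 higher in the DKO-labelled list, and per kb a median of 0.16 with 21 of 30 higher. Their summits were a median of 21.5 bp apart against 19.5 bp in the other 220 pairs. The lists also differ in the target their headers name (FAM181A and TEAD4) and in their control, with 1 library each, so the offset describes these 2 libraries and is not read as one between genotypes.

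The negative peaks, stretches where the control outnumbered the ChIP library, were set against the shared peaks last. Of the 74 in the WT-labelled and the 15 in the DKO-labelled negative list, 0 overlapped a shared peak of either list, and 0 overlapped an unshared one. Within a list this is largely fixed, since a stretch with more control than ChIP tags can hardly also be a peak. Within 100 kb of a shared peak there were 3, at chr10:42635900-42636561, chr9:67042539-67043072 and chr22:18737168-18737891, with 22, 10 and 16 tags, and the smallest gap was 15214 bp.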

How the data were processed

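Peak lists of 2 ChIP libraries, 1 per genotype label, were analysed, with their lists of negative peaks. Per the file headers, the authors made them with MACS 1.4.2 (p cutoff 1e-05, at most 1 tag per position, larger dataset scaled to the smaller). The submitters' processing notes instead name MACS2 2.1.0, with Bowtie 1.1.2, Trimmomatic 0.33, bcl2fastq 2.17 and the builds hg38 and mm10, without roles. Deposited values were the count of tags per peak (not normalized), a score, defined as -log10(p) multiplied by 10, the fold enrichment over the control (a ratio) and an FDR in percent. Between 10034265 and 14285407 tags were used per library. Intervals cover counting error only.

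Overlaps, neighbours and runs were computed in Python 3.11.15 (pandas 2.3.3, numpy 2.4.6, scipy 1.17.1) and tested on simulated lists. Tags were divided by the tags used per ChIP library or by peak length. With 1 library per group no test was made. Regions named were the 10 richest runs, pairs at the extremes of fold enrichment, score, tag ratio and overlap, and the longest and most tag-rich peaks. Members, gaps and named sets were chosen with earlier results of these data known. The most tag-rich and lone pairs, and the alternative without chromosome 4, were added after the lists were seen. Sequences and genes were not assigned, for want of a genome of the build.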

Additional observations from a re-analysis of the deposited data

How the results depend on the processing

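There was 1 library per label, so no replicate could be left out. Depth limits what is known of the weakest shared peaks, which held 11 and 12 tags. The number of shared WT-labelled peaks, 237, became 102 when peaks scoring under 100 were dropped from either list, and 154 when those with an FDR above 5% were dropped. It was 194 to 235 under the other 4 settings. With the score limit, the runs fell from 89 to 49, the share in the 5 richest runs rose from 26.2% to 36.3%, the median WT-labelled length was 1137.5 bp and the median tags were 102.5 and 139.5 (WT-labelled and DKO-labelled). Fewer peaks remain under these limits by construction. The share of shared peaks with a neighbour was 71.6% and 80.4% with that score limit, 60.8% and 77.2% within 10 kb, and 89.9% and 91.6% within 1 Mb. Joining over 10 kb or 1 Mb put 20.7% or 32.5% in the 5 richest runs. The median log2 ratio of tags, 0.30, was 0.12 per kb of peak and 0.50 without scaling, and stayed above 0 under all 6 settings. The median summit distance was 17 to 19 bp under its 4 settings. Leaving out chromosome 4, added after seeing the data, gave 77.7% and 84.1% with a neighbour, a log2 ratio of 0.27 and a summit distance of 19 bp.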
